A study of Mus musculus with 12 samples.

Results

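The glutathione S-transferases measured here were Gsta2, Gsta3 and Gsta4 of the alpha class, Gstm1, Gstm2, Gstm3 and Gstm4 of the mu class, Gstp1 of the pi class, Gstt1 of the theta class and Gstk1 of the kappa class. They were found by gene symbol in the array's annotation, which gave 16 probe sets for these 10 genes among the 45101 probe sets of the array. Of the 16 probe sets, 15 name 1 gene and 1 names Gm3776, Gsta2 and Gsta1 together. Liver RNA from adult female B6.129 mice, in 12 samples, was put on Affymetrix 3' expression arrays, 1 per sample. The 4 groups of 3 samples were WT (Esr1+/+) mice on normal diet (NIH-31), WT mice on the high-fat research diet (#12492, 60 kcal% fat), aERKO (Esr1-/-) mice on normal diet, and aERKO mice on that high-fat diet. Feeding lasted 2 weeks. Esr1 encodes estrogen receptor alpha, and the labels name no tissue to which its loss was restricted. How the 2 diets differ apart from their fat was not analysed here, so a diet difference below is between the diets as a whole. The comparisons ask how transcripts of these enzymes differ in liver without the receptor on each diet, how they differ between the diets in each genotype, and whether WT and aERKO differ in that diet difference.

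Glutathione S-transferases join the tripeptide glutathione to reactive, fat-soluble compounds, which makes these compounds water-soluble and ready for export from the cell. The cytosolic classes form dimers, and liver is among the tissues richest in them. Many members are induced through the transcription factor NRF2, which binds antioxidant response elements, and through the nuclear receptors CAR and PXR. In mouse liver Gstp1 is known as a transcript that males hold at a higher level than females. Many members of a class lie side by side in the genome and are close in sequence, so their transcripts can bind each other's probes. In the RefSeq annotation Gstm1, Gstm2, Gstm3 and Gstm4 are neighbours on chromosome 3, and Gsta2 lies near Gsta1, Gm3776 and Gsta4 on chromosome 9. Gsta3, also of the alpha class, lies apart from them on chromosome 1.

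The sequences before the start sites of the 4 genes that had at least 1 probe set past the test are shown first, since these are the regions where the receptors and NRF2 could be looked for. Each is the stretch of 250 bases before the RefSeq start in build GRCm38.p6, read 5′ to 3′ along the strand of the gene, and the capitals mark a match to the antioxidant response element core TGACNNNGC.
Gsta2 (chr9:78347146-78347395, minus strand): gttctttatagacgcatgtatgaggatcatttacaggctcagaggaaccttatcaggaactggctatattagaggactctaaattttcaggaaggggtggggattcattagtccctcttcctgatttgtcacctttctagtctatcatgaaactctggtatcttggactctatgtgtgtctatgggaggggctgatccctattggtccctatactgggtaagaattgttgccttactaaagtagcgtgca
Gsta3 (chr1:21240335-21240584, plus strand): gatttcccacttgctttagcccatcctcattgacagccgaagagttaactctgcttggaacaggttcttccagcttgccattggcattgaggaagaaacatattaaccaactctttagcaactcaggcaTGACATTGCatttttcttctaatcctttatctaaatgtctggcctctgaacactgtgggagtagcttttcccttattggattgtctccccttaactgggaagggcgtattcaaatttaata
Gstm2 (chr3:107986421-107986670, minus strand): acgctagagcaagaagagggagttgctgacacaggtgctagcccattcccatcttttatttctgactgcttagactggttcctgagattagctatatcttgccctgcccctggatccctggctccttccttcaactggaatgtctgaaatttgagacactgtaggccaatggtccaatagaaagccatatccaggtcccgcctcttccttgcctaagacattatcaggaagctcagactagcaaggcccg
Gstp1 (chr19:4037913-4038162, minus strand): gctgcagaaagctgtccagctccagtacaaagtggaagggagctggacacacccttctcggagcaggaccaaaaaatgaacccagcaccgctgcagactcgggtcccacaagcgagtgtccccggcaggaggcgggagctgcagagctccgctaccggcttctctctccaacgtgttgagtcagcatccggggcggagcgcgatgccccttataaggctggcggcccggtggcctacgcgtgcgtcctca
The table of start regions held 9 of the 10 genes, with 11 stretches. Gsta4 was not in it. The core TGACNNNGC, searched on both strands, was present in 1 of these 11 stretches, that of Gsta3, 121 bases before the start, and in 10.2% of the 32851 stretches of all genes. The full estrogen response element (GGTCA and TGACC parted by 3 bases) was in 0 of the 11 and in 0.0639% of all stretches. The STAT5 motif TTCNNNGAA was in 0 of the 11 and in 7.02% of all. A missing match says only that these letters are not in this window, and a match is not evidence of binding.

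Esr1 transcript followed the labels at both of its probe sets that were bright enough to be tested. Its signal at probe set 1460591_at lay between 1963 and 3930 in the 6 WT samples and between 586 and 885 in the 6 aERKO samples, a difference of -2.07 ± 0.20 (SE, log2 scale, adjusted p = 6.54e-05) for mice on normal diet and -2.05 ± 0.20 (adjusted p = 9.49e-05) for those on high-fat diet. At 1435663_at the differences were -2.295 ± 0.277 (adjusted p = 0.000439) and -2.126 ± 0.277 (adjusted p = 0.000924). Another Esr1 probe set, 1421244_at, was too dim to be tested. On normal diet its signals overlapped, at 59.9, 7.61 and 29.2 in WT and 10.1, 5.30 and 7.49 in aERKO. Hepatocyte transcripts were abundant on all arrays, since the lowest signal of Alb, Apoa1 and Ttr was 46215. Pancreatic and muscle transcripts were present on some arrays. Averaged over the 9 measured acinar markers, log2 signal reached 12.3 and 9.77 in replicates 3 and 2 of WT high-fat, 13.7 in replicate 2 of WT normal and 13.4 in replicate 1 of aERKO normal, against 4.92 to 6.11 on the other arrays. That of the 10 skeletal muscle markers was 10.9 in aERKO normal replicate 1 and 9.02 in aERKO high-fat replicate 2, against 5.41 to 7.16 on the others. Results below are given with all arrays and, where stated, without the 4 arrays with pancreatic transcripts, which leaves WT high-fat with 1 array whose spread is taken to be that of the other groups.

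All 16 probe sets were above the filter on dim signals and were tested among 25412 probe sets. Differences are between group means of log2(signal + 16), written with their standard error, and a probe set is called at a Benjamini-Hochberg adjusted p under 0.05. The labels do not say that the 3 samples of a group came from separate mice, so these p-values measure the spread between samples, which may be technical. In whole liver RNA, fewer cells of a type and less RNA per cell cannot be told apart.

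**Figure D1:**
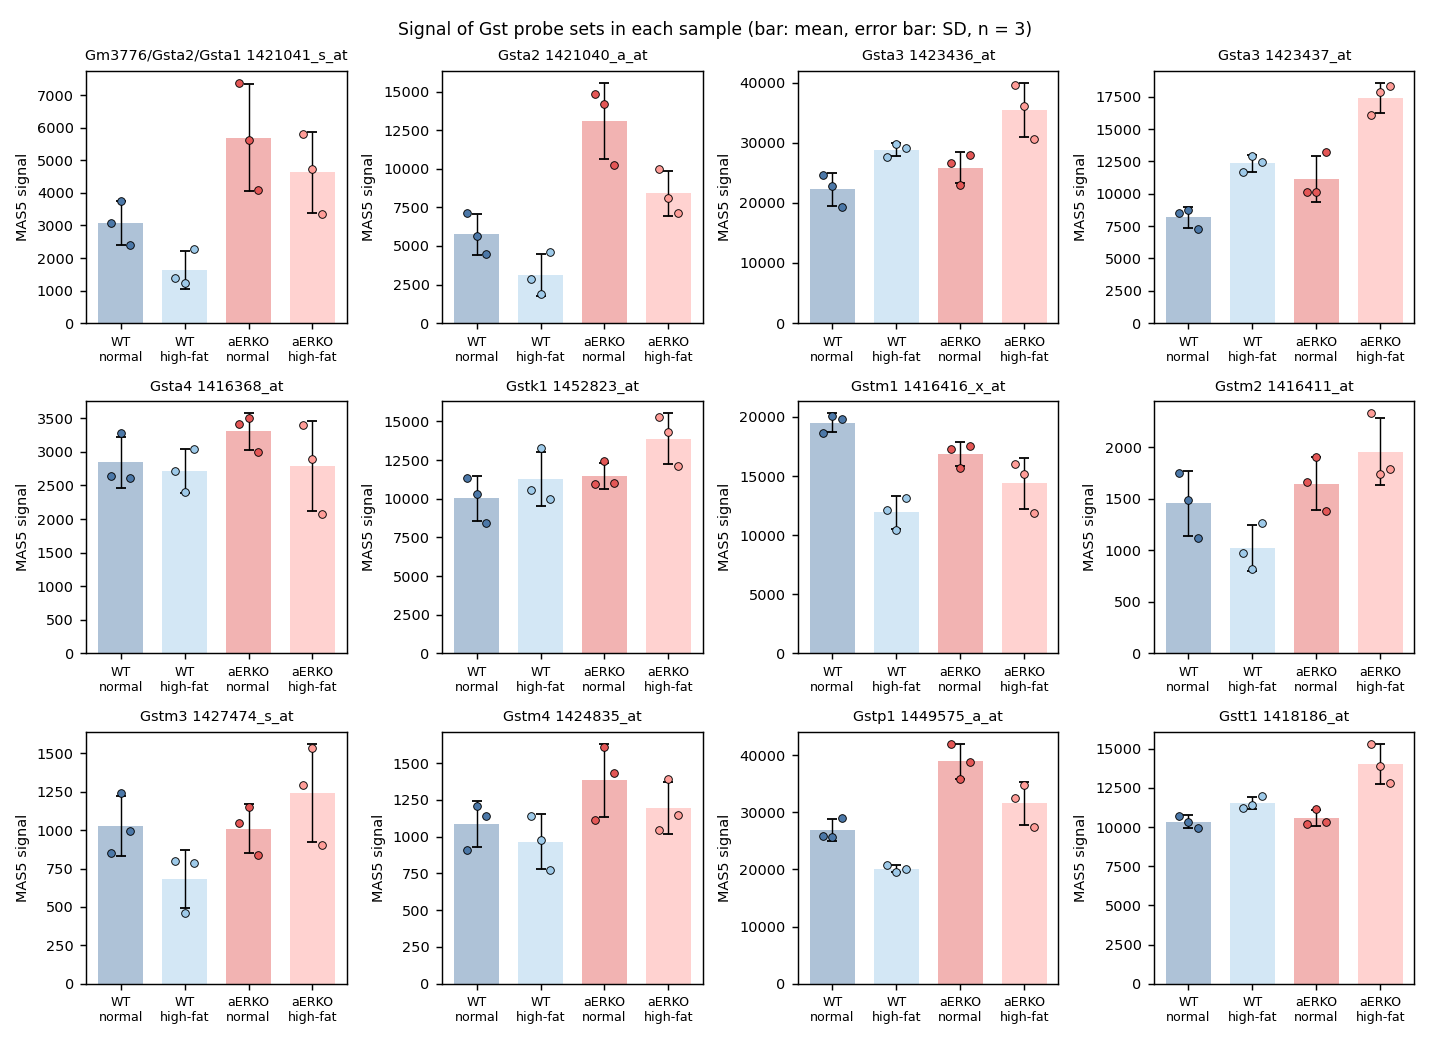
MAS5 signal (linear axis from 0) of 12 of the 16 Gst probe sets, which leaves out 3 of Gstm1 and 1 of Gstm3, in each of the 12 samples, by group, with the mean as a bar and the SD as the error bar (n = 3). Gsta2 and Gstp1 were higher in the aERKO samples on both diets, Gsta3 was highest in aERKO on high-fat diet, and Gstm1 was lowest in WT on high-fat diet.

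Without Esr1, Gstp1 transcript was called higher on both diets, and Gsta2, the probe set shared by Gsta genes and Gstm2 were called higher on high-fat diet. On normal diet all aERKO samples were also above all WT samples for Gsta2, just outside the threshold (adjusted p = 0.0553 by limma). Its call on high-fat diet alone therefore does not show a difference particular to that diet. On normal diet 1 of the 16 probe sets was called, Gstp1, which was higher in aERKO, and 0.677% of all 25412 probe sets were called, 0.331% higher and 0.346% lower. On high-fat diet 4 of the 16 were called, all higher in aERKO, where 1.29% of all probe sets were called, 0.728% higher and 0.559% lower. All 4 of these calls were lost in the fit with no intensity trend. The median difference over the 16 was 0.22 on normal diet, with a median of -0.05 over all probe sets, and 0.41 on high-fat diet, with -0.05 over all. On high-fat diet 16 of the 16 differences were above 0, although Gsta4 stood at 0.02 and turned to -0.00401 with quantile normalization. Without the arrays with pancreatic or muscle transcripts, an alternative chosen after seeing the data, it was -0.03 and that of Gstm4 was -0.06, with 0.31 over all arrays.

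Gsta2 is an alpha-class enzyme of hepatocytes that is known for its strong inducibility and that also reduces lipid peroxides. Its probe set 1421040_a_at had signals of 7137, 5625 and 4491 in the WT samples on normal diet against 14833, 14172 and 10248 in the aERKO samples on that diet. On high-fat diet the WT samples gave 2841, 1899 and 4618 and the aERKO samples 9953, 8087 and 7150. The aERKO samples lay above the WT samples on both diets with no overlap. The difference was 1.19 ± 0.26 under normal diet, just outside the threshold (adjusted p = 0.0553), and 1.504 ± 0.261 under high-fat diet (adjusted p = 0.00921), a 2.84-fold higher signal. Without the 4 arrays with pancreatic transcripts the high-fat difference was 1.55 ± 0.27 (adjusted p = 0.0413). The call was lost with no intensity trend and without aERKO high-fat replicate 1 (adjusted p = 0.0566). It was also lost without the arrays with pancreatic or muscle transcripts, where the difference was 1.565 ± 0.300.

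The probe set shared by Gm3776, Gsta2 and Gsta1 (1421041_s_at) can bind Gsta2 transcript and is not a measure of a separate gene. Its signals were 3077, 3739 and 2391 in WT on normal diet, 1374, 1234 and 2286 in WT on high-fat diet, 7381, 5623 and 4082 in aERKO on normal diet, and 5825, 4744 and 3349 in aERKO on high-fat diet. The genotypes did not overlap on either diet. The aERKO minus WT difference was 0.87 ± 0.27 under normal diet (adjusted p = 0.211) and 1.52 ± 0.27 under high-fat diet (adjusted p = 0.00954). The high-fat call was lost without WT high-fat replicate 1 or 2 or aERKO high-fat replicate 1 or 2 (adjusted p = 0.0582, 0.0561, 0.0593 and 0.0555), and without the arrays with pancreatic or muscle transcripts (adjusted p = 0.102).

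Gstp1, the pi-class enzyme, conjugates small electrophiles and was the member called on both diets. The signals of 1449575_a_at were 25914, 25752 and 29090 in WT and 42033, 35775 and 38852 in aERKO on normal diet. On high-fat diet they were 20723, 19501 and 20049 in WT and 32512, 34853 and 27502 in aERKO. All aERKO samples lay above all WT samples of the same diet. The aERKO minus WT difference was 0.53 ± 0.10 on normal diet (adjusted p = 0.0185), or 1.44-fold, and 0.65 ± 0.10 on high-fat diet (adjusted p = 0.00312), or 1.57-fold. The high-fat call held in 12 of 12 fits that each left out 1 array, and the normal-diet call was lost in 4 of 12, without WT normal replicate 1 or 2 or aERKO normal replicate 1 or 3 (adjusted p = 0.0744, 0.0897, 0.0903 and 0.0595). Without the arrays with pancreatic transcripts the differences were 0.44 ± 0.14 (adjusted p = 0.337) and 0.60 ± 0.16 (adjusted p = 0.248). The neighbouring Gstp3 was not called in either genotype comparison, and Gstp2 was not among the symbols of the annotation used.

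Gstm2, a mu-class enzyme, differed between genotypes on the high-fat diet. Its probe set 1416411_at had signals of 978, 822 and 1267 in WT on high-fat diet and 2330.5, 1743 and 1794 in aERKO on that diet. On normal diet the WT samples gave 1749, 1493 and 1123 and the aERKO samples 1661, 1902 and 1381. The genotypes were apart on high-fat diet and overlapped on normal diet. The aERKO minus WT difference was 0.93 ± 0.20 on high-fat diet (adjusted p = 0.03), a 1.91-fold higher signal in aERKO, and 0.19 ± 0.20 on normal diet (adjusted p = 0.779). The high-fat call was lost without WT high-fat replicate 1 or 2 or aERKO high-fat replicate 1 or 2 (adjusted p = 0.122, 0.152, 0.156 and 0.0756), and the difference without the arrays with pancreatic transcripts was 0.98 ± 0.28 (adjusted p = 0.288).

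The samples of the 2 genotypes did not overlap for 4 probe sets that were higher and 1 that was lower in aERKO on normal diet, where 5.88% of all probe sets were apart and higher and 8.73% apart and lower. The 1 lower probe set was 1416416_x_at of Gstm1, at -0.21 ± 0.12 (adjusted p = 0.548). On high-fat diet 10 of the 16 were apart and higher and 0 apart and lower, and the shares over all probe sets were 8.65% and 12.1%. Unadjusted p was under 0.05 for 4 of the 16 on normal diet and for 13 of the 16 on high-fat diet, against 2762 and 3533 of all 25412. The 16 probe sets stand for 10 genes, with 4 for Gstm1 alone, so they are not 16 separate results. Most of them had a standard error below the median of 0.234 over all probe sets, so these shares do not compare equally precise probe sets.

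**Figure D2:**
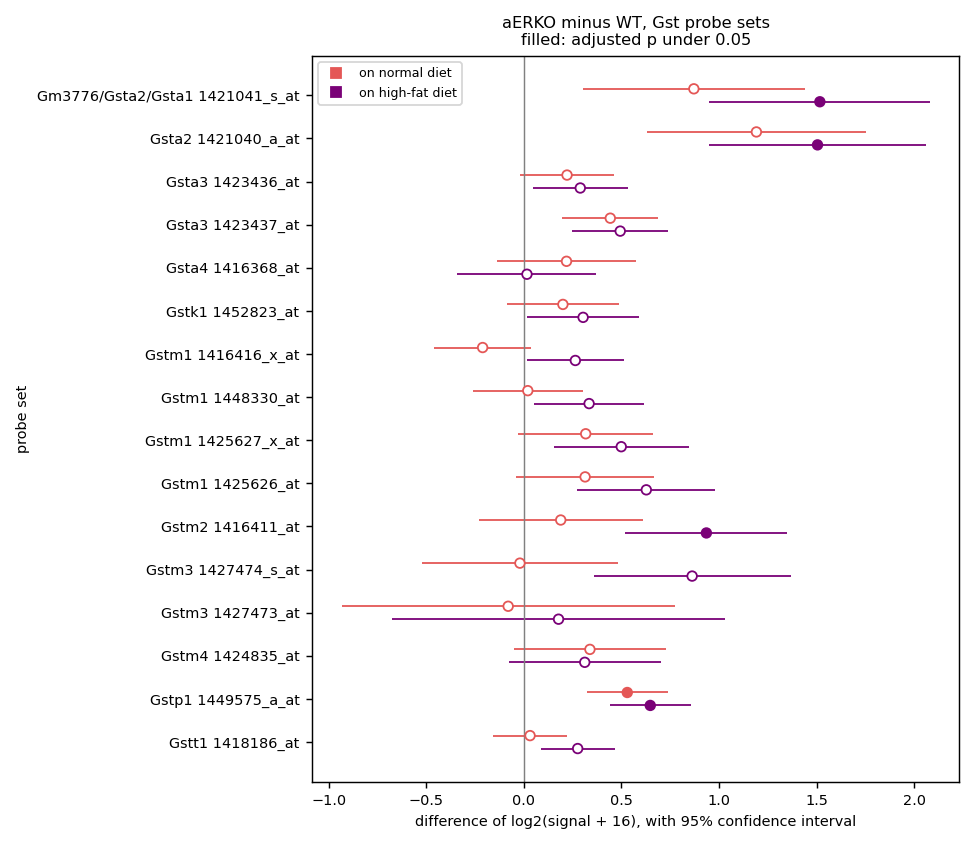
Difference between aERKO and WT in log2(signal + 16) for each of the 16 Gst probe sets, with 95% confidence intervals, on normal and on high-fat diet; filled points passed an adjusted p under 0.05. Gstp1 was filled on both diets (0.53 and 0.65), and Gsta2 (1.504), the shared Gsta probe set (1.52) and Gstm2 (0.93) on high-fat diet.

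Between the diets, Gsta3 was higher and Gstm1 had a lower mean on high-fat diet in both genotypes, and 1 of these differences passed the test. In WT 0 of the 16 probe sets were called by limma, where 0.0275% of all probe sets were (0.00787% higher and 0.0197% lower), with 11 of the 16 at an unadjusted p under 0.05 against 1917 of all 25412. In aERKO 1 of the 16 was called, Gsta3, which was higher on high-fat diet, where 0.181% of all probe sets were called, 0.118% higher and 0.063% lower. In aERKO 7 of the 16 had an unadjusted p under 0.05, against 2352 of all probe sets. The limits given above for such counts of the 16 hold for the diets too. The diet comparisons use the same arrays as the genotype comparisons, so the values below are not independent of those above.

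Gsta3 encodes the alpha-class enzyme that is constitutively abundant in mouse liver and that conjugates the activated form of aflatoxin B1. Probe set 1423437_at had signals of 8477, 8781 and 7254 in WT on normal diet against 11648, 12955 and 12483 in WT on high-fat diet. In aERKO it had 10159, 10108 and 13220 on normal diet against 16122, 17835 and 18302 on high-fat diet. The high-fat samples lay above the normal-diet samples in both genotypes. Gsta3 rose by 0.65 ± 0.12 with high-fat diet in aERKO (adjusted p = 0.0417), or 1.57-fold, and the WT difference was 0.60 ± 0.12 (adjusted p = 0.0903). The aERKO minus WT difference was 0.44 ± 0.12 under normal diet (adjusted p = 0.127) and 0.49 ± 0.12 under high-fat diet (adjusted p = 0.0533). The call in aERKO was lost in 10 of 12 fits without 1 array, with adjusted p from 0.0126 to 0.189 over all 12, and remained without WT normal replicate 3 or aERKO normal replicate 3. Without the arrays with pancreatic transcripts the difference in aERKO was 0.59 ± 0.14 (adjusted p = 0.288).

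The second Gsta3 probe set, 1423436_at, gave signals of 24604, 22725 and 19326 in WT on normal diet against 27590, 29808 and 29200 in WT on high-fat diet. In aERKO the signals were 26662, 22963 and 27959 on normal diet against 39612, 36054 and 30668 on high-fat diet. The diets were apart in both genotypes here as well. The differences were smaller than at the other probe set, at 0.38 ± 0.11 in WT (adjusted p = 0.42) and 0.45 ± 0.11 in aERKO (adjusted p = 0.169).

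Gstm1 encodes a major mu-class enzyme of mouse liver, and the diet differences of its 4 probe sets were below 0 in both genotypes. At 1416416_x_at the WT samples had 18615, 20096 and 19841 on normal diet against 12163, 10452 and 13152 on high-fat diet, and the aERKO samples had 17321, 15720 and 17562 on normal diet against 15976, 15212 and 11910 on high-fat diet. The diets did not overlap in WT and did in aERKO. The WT difference was -0.72 ± 0.12 (adjusted p = 0.055), just outside the threshold, and the aERKO difference was -0.24 ± 0.12 (adjusted p = 0.557). At 1448330_at the WT samples had 14141, 15433 and 13089 on normal diet against 7769, 7546 and 9684 on high-fat diet, and the difference was -0.78 ± 0.13 (adjusted p = 0.0666). Its aERKO samples had 14068, 15140 and 13983 on normal diet against 11324, 11910 and 8442 on high-fat diet, with a difference of -0.46 ± 0.13 (adjusted p = 0.238), and the diets were apart in both genotypes. The other 2 Gstm1 probe sets, 1425627_x_at and 1425626_at, differed in WT by -0.72 ± 0.16 (adjusted p = 0.192) and -0.37 ± 0.16 (adjusted p = 0.637), also with no overlap. In aERKO they differed by -0.54 ± 0.16 (adjusted p = 0.27) and -0.05 ± 0.16 (adjusted p = 0.957), and their signals over the 12 samples ran from 2329 to 6898 and from 636 to 1187. The x in a probe set name marks probes that can bind other transcripts, and the annotation places Gstm1 between Gstm2 and Gstm4.

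The diet difference in WT was also below 0 for Gsta2, at -0.95 ± 0.26 (adjusted p = 0.373) with overlapping samples, and for Gstp1, at -0.42 ± 0.10 (adjusted p = 0.221) with samples apart. In aERKO the same differences were -0.63 ± 0.26 for Gsta2 (adjusted p = 0.471) and -0.30 ± 0.10 for Gstp1 (adjusted p = 0.308), with samples apart for both. None of these 4 passed the test. The median diet difference over the 16 was -0.39 in WT and -0.13 in aERKO, beside -0.01 over all probe sets in each. In WT 3 of the 16 were apart and higher and 7 apart and lower, beside 6.28% and 6.75% of all probe sets, and in aERKO 3 and 4, beside 7.48% and 7.58%.

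**Figure D3:**
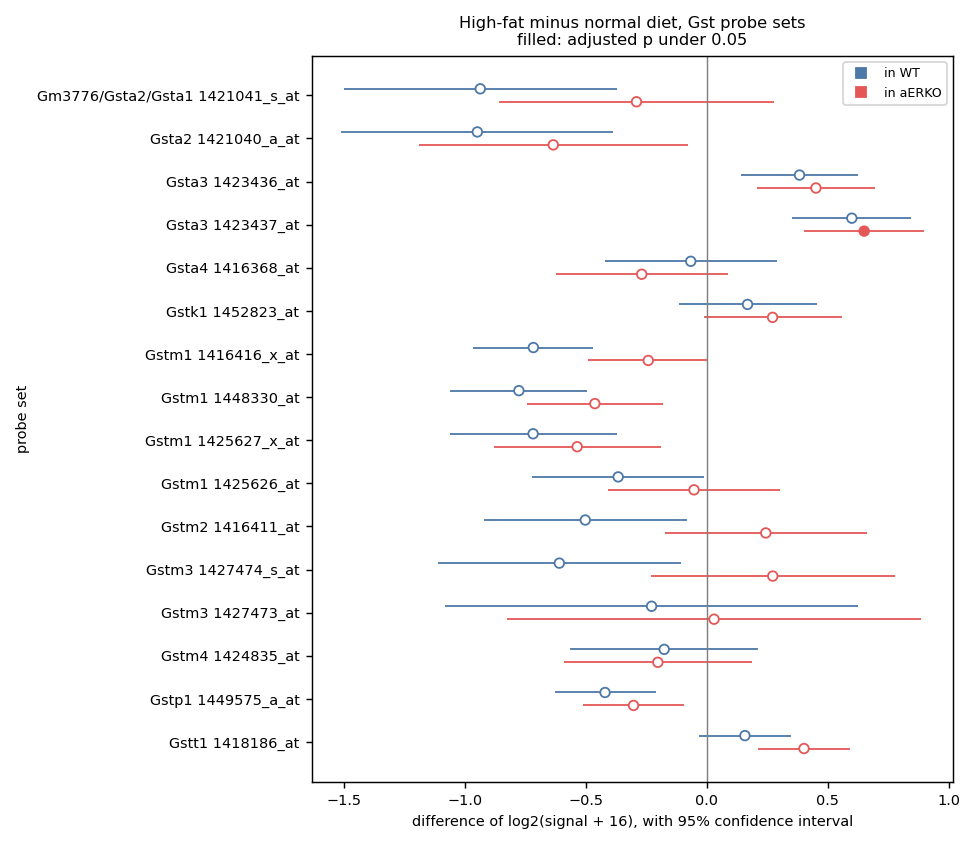
Difference between high-fat and normal diet in log2(signal + 16) for each of the 16 Gst probe sets, with 95% confidence intervals, in WT and in aERKO; filled points passed an adjusted p under 0.05. Gsta3 lay above 0 in both genotypes and passed in aERKO (0.65), while the Gstm1 probe sets lay below 0 in both.

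The response to diet did not pass the test of a difference between the genotypes for any of the 16 probe sets in limma, where 0% of all 25412 were called and 1384 had an unadjusted p under 0.05. Unadjusted p was under 0.05 for 3 of the 16, all mu-class. For Gstm2 the aERKO diet difference exceeded the WT one by 0.75 ± 0.28 (adjusted p = 0.894 by limma), with a diet difference of -0.50 in WT and 0.24 in aERKO. For Gstm1 at 1416416_x_at the excess was 0.47 ± 0.16 (adjusted p = 0.894 by limma). For Gsta3 at 1423437_at it was 0.05, with a 95% interval from -0.30 to 0.40, and for Gstp1 0.12, from -0.18 to 0.41.

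Gstm3 was the third of these. At 1427474_s_at, whose letter s marks probes shared with other transcripts, the signals were 849, 1239 and 996 in WT and 1044, 1150.2 and 836 in aERKO on normal diet, and 797, 461 and 783 in WT and 1291, 1536 and 901 in aERKO on high-fat diet. The genotypes overlapped on normal diet and were apart on high-fat diet. The genotype difference was 0.86 ± 0.23 under high-fat diet (adjusted p = 0.0997), and -0.02 on normal diet with a sign that turned to 0.12 under median centring. The interaction was 0.88 ± 0.33 (adjusted p = 0.894 by limma). Without the arrays with pancreatic transcripts the high-fat genotype difference was 0.60 ± 0.29 (adjusted p = 0.569) and the interaction 0.51, and without those with pancreatic or muscle transcripts they were 0.43 ± 0.29 (adjusted p = 0.863) and 0.34. The other Gstm3 probe set, 1427473_at, had signals from 55.6 to 214 over the 12 samples and no difference beyond its standard error of 0.40 in any comparison between 2 groups.

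None of the probe sets of Gsta4, Gstm4, Gstt1 and Gstk1 was called in any comparison. Gsta4, which conjugates the lipid peroxidation product 4-hydroxynonenal, had signals of 2639, 3285 and 2616 in WT on normal diet, 2708, 2396 and 3047 in WT on high-fat diet, 3418, 3499 and 2994 in aERKO on normal diet, and 3405, 2898 and 2071 in aERKO on high-fat diet. These groups overlapped in every comparison of 2 groups, and the genotype difference on high-fat diet had a 95% interval from -0.34 to 0.37. Gstm4 (1424835_at) had signals of 910.1, 1206 and 1142 in WT on normal diet, 1144, 980.2 and 772 in WT on high-fat diet, 1113, 1607 and 1430 in aERKO on normal diet, and 1048, 1390 and 1148 in aERKO on high-fat diet. Its samples also overlapped in each comparison, with genotype differences of 0.34 ± 0.18 for normal diet (adjusted p = 0.536) and 0.31 ± 0.18 under high-fat diet (adjusted p = 0.483). Without the arrays with pancreatic transcripts these were 0.565 ± 0.190 (adjusted p = 0.377) and 0.05 ± 0.22 (adjusted p = 0.96).

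Gstt1, of the theta class, acts on small halogenated compounds. Its signals were 10738, 10357 and 9928 in WT on normal diet, 11222, 11427 and 11971 in WT on high-fat diet, 10218, 11165 and 10338 in aERKO on normal diet, and 15337, 13884 and 12798 in aERKO on high-fat diet. The aERKO samples on high-fat diet lay above all 9 others. The diet difference was 0.40 ± 0.09 in aERKO (adjusted p = 0.105) and 0.16 ± 0.09 in WT (adjusted p = 0.741), and the interaction was 0.24 ± 0.13 (adjusted p = 0.894). Gstk1, which works in mitochondria and peroxisomes and is unrelated in fold to the cytosolic classes, had signals of 11315, 10313 and 8463 in WT on normal diet, 10550, 13293 and 10013 in WT on high-fat diet, 10952, 12411 and 11017 in aERKO on normal diet, and 15288, 14291 and 12088 in aERKO on high-fat diet. Its groups overlapped in every comparison, and the highest difference was 0.30 ± 0.13 between genotypes under high-fat diet (adjusted p = 0.326).

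By group mean, Gsta2, the shared Gsta probe set, Gstm4, Gstp1 and Gstm1 at 1425626_at were ordered WT high-fat, WT normal, aERKO high-fat, aERKO normal from lowest to highest. Gsta3 at both probe sets and Gstt1 were ordered WT normal, aERKO normal, WT high-fat, aERKO high-fat. For Gstp1 the samples of neighbouring groups were apart except those of WT normal and aERKO high-fat, whose ranges of 25752 to 29090 and 27502 to 34853 overlapped. For Gsta2 the samples of WT high-fat and WT normal overlapped, and those of the other neighbours did not. For Gsta3 at 1423437_at WT normal was apart from the other 3 groups, aERKO normal and WT high-fat overlapped, and aERKO high-fat was above them.

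Cell-type markers were set beside these results. Of the red blood cell list, 2 of 4 markers were measured, with a summed signal of 208 to 403 in the WT samples and 715 to 1460 in the aERKO samples. Only 1 of these, Alas2, an erythroid enzyme of heme synthesis, was above the filter on dim signals and was tested. Its signal is part of that sum. Alas2 was higher in aERKO by 1.86 ± 0.22 on normal diet (adjusted p = 0.000426) and by 1.89 ± 0.22 on high-fat diet (adjusted p = 0.000392). Among the hepatocyte markers Alb differed by -0.50 ± 0.10 between genotypes on normal diet (adjusted p = 0.0362). Of the 6 tested periportal markers only Cyp2f2 was called between genotypes. It was higher in aERKO by 0.62 ± 0.13 on normal diet (adjusted p = 0.0333) and by 0.67 ± 0.13 on high-fat diet (adjusted p = 0.0144). The median difference over these 6 was -0.09 and -0.14, beside -0.05 over all probe sets on each diet, so the list as a whole did not share this rise. The part of these marker differences in the Gst differences was not tested. The 5 measured cholangiocyte markers had summed signals of 245 to 803 over the 12 arrays. In every comparison 0 tested genes of the cholangiocyte, macrophage, stellate, endothelial, adipocyte, pericentral, pancreatic and muscle lists were called. Of all probe sets 0% to 1.29% were. Only 3 cholangiocyte genes and 1 adipocyte gene were tested. The median genotype difference was -3.95 for the pancreatic list on high-fat diet and 1.6 for the muscle list on normal diet. These 2 lists varied widely within some groups, so the absence of calls does not show that the groups were alike. With the acinar and muscle scores added to the model, the high-fat genotype differences were 1.58 ± 0.31 for Gsta2 (adjusted p = 0.0446) and 0.57 ± 0.11 for Gstp1 (adjusted p = 0.0386), and the Gstm2 difference of 1.03 ± 0.24 was not called (adjusted p = 0.0988).

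Among the other Gst genes on the array, 12 of 19 listed genes were tested and 0 were called in any of the 5 comparisons. Of all probe sets 0% to 1.29% were called in these comparisons. Those with the smallest unadjusted p were Gstt2 between genotypes on high-fat diet, at -0.46 ± 0.11 (adjusted p = 0.0601), Mgst3 between diets in aERKO, at 0.75 ± 0.17 (adjusted p = 0.118), and Gstm6 between genotypes on normal diet, at 0.80 ± 0.22 (adjusted p = 0.152). Gstt2 is a theta-class neighbour of Gstt1 and its mean signals were 6439 ± 267 in WT and 4695 ± 491 in aERKO on high-fat diet (SD, n = 3). Mgst3 encodes a microsomal enzyme of another protein family, and its mean signal on high-fat diet was 1169 ± 123 in WT and 1869 ± 441 in aERKO (SD, n = 3), with an interaction of 1.02 ± 0.24 (adjusted p = 0.573).

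Enzymes that make and recycle glutathione were not called either, with 12 of 14 listed genes tested and 0 passing in any comparison, beside 0% to 1.29% of all probe sets. Gclc and Gclm, the subunits of the rate-limiting enzyme of glutathione synthesis, differed between genotypes on high-fat diet by 0.15 ± 0.11 (adjusted p = 0.597) and 0.16 ± 0.13 (adjusted p = 0.639). The smallest p among them belonged to Ggct, which breaks down gamma-glutamyl dipeptides, between diets in aERKO, at 0.68 ± 0.14 (adjusted p = 0.0861). Gsr, which regenerates reduced glutathione, differed by -0.51 ± 0.12 in the same comparison (adjusted p = 0.122).

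Transcripts for the export and processing of conjugates included the largest genotype differences among the glutathione genes listed. Of 12 genes tested, 2 were called higher in aERKO on normal diet, and 2 higher and 1 lower in aERKO on high-fat diet. Between diets in aERKO 1 was called, lower on high-fat diet. Of all probe sets 0.677%, 1.29% and 0.181% were called in these comparisons. Nat8, which in human acetylates cysteine conjugates to mercapturates, had mean signals of 259 ± 125 in WT and 1831 ± 226 in aERKO on normal diet (SD, n = 3). It was higher in aERKO by 2.85 ± 0.27 on normal diet (adjusted p = 4.63e-05) and by 3.31 ± 0.27 on high-fat diet (adjusted p = 1.39e-05). Close relatives of Nat8 can bind its probes. Abcg2, an efflux transporter of the hepatocyte's canalicular membrane, was higher in aERKO by 0.93 ± 0.12 on normal diet (adjusted p = 6e-04) and by 1.24 ± 0.12 on high-fat diet (adjusted p = 5.88e-05). Ggt5, a gamma-glutamyl transferase, differed between its 2 probe sets. Probe set 1439420_x_at gave -2.10 ± 0.25 between genotypes under high-fat diet (adjusted p = 0.00043) and -1.46 ± 0.25 between diets in aERKO (adjusted p = 0.0349), and 1418216_at gave 0.23 ± 0.37 (adjusted p = 0.831) and 0.06 ± 0.37 (adjusted p = 0.976).

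Of the other enzymes that use glutathione, 1 of 10 tested was called, between genotypes on high-fat diet (1.29% of all probe sets). Gpx4, the peroxidase that acts on phospholipid hydroperoxides, had mean signals on high-fat diet of 8068 ± 283 in WT and 15390 ± 2952 in aERKO (SD, n = 3). It was higher in aERKO by 0.91 ± 0.14 (adjusted p = 0.00436). A second Gpx4 probe set gave 0.99 (adjusted p = 0.00454). On normal diet the Gpx4 difference was 0.28 ± 0.14 (adjusted p = 0.509).

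Transcripts known to be induced through NRF2 did not pass the test, with 11 of 12 listed genes tested and 0 called in any comparison. Of all probe sets 0% to 1.29% were called across the comparisons, and at that share a list of 11 genes would often hold no call. Their median difference between genotypes was -0.11 on normal diet and 0.17 on high-fat diet, and their median diet difference was -0.27 in WT and 0.16 in aERKO. Over all probe sets these medians were -0.05, -0.05, -0.01 and -0.01. Nqo1, a quinone reductase and a standard marker of NRF2 activity, differed by -0.34 ± 0.21 between genotypes on normal diet (adjusted p = 0.605). Ugdh, which makes the sugar donor of glucuronidation, had the smallest p on high-fat diet, at 0.82 ± 0.21 (adjusted p = 0.073). Me1, a source of NADPH, had the smallest p between diets in WT, at -0.58 ± 0.12 (adjusted p = 0.144).

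Of 10 tested genes known to be induced through CAR or PXR, 1 was called between genotypes on normal diet, 2 between genotypes on high-fat diet, 1 between diets in WT and 2 between diets in aERKO. Of all probe sets 0.677%, 1.29%, 0.0275% and 0.181% were called in these comparisons. Cyp2b9, a cytochrome P450 that is higher in female than in male mouse liver, fell by 1.52 in aERKO on normal diet (SE 0.17, adjusted p = 0.000261) and rose by 1.69 ± 0.17 with high-fat diet in aERKO (adjusted p = 0.000606). Ces2a, a carboxylesterase, fell with high-fat diet by 1.17 in WT (SE 0.13, adjusted p = 0.00465) and by 1.22 in aERKO (SE 0.13, adjusted p = 0.000606). On high-fat diet the aldehyde dehydrogenases Aldh1a1 and Aldh1a7 were higher in aERKO by 0.41 ± 0.08 (adjusted p = 0.0217) and 1.01 ± 0.13 (adjusted p = 0.000645). Cyp2b10 and Cyp3a11, also on this list, were not called in any comparison. Their group means of signal ran from 1844 to 3674 and from 54940 to 66790.

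Of 18 tested genes for factors that regulate liver transcription and Gst genes, 1 was called, in both genotype comparisons (0.677% of all probe sets on normal diet and 1.29% on high-fat diet). Cux2, a repressor that is higher in female than in male mouse liver, gave -3.08 ± 0.47 (adjusted p = 0.00385) on normal diet and -3.34 ± 0.47 (adjusted p = 0.00168) on high-fat diet at 1447500_at, with mean signals of 721 ± 105 in WT and 98.7 ± 100.4 in aERKO on normal diet (SD, n = 3). Another Cux2 probe set, 1447821_at, gave 0.02 and 0.05 in these comparisons and was not called, and 1450181_at gave -1.36 (adjusted p = 0.0795) and -1.55 (adjusted p = 0.027). Nfe2l2, which encodes NRF2, differed by 0.22 ± 0.13 between diets in WT (adjusted p = 0.759). Nr1i2, which encodes PXR, differed by -0.43 ± 0.12 between genotypes under high-fat diet (adjusted p = 0.103).

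**Figure D4:**
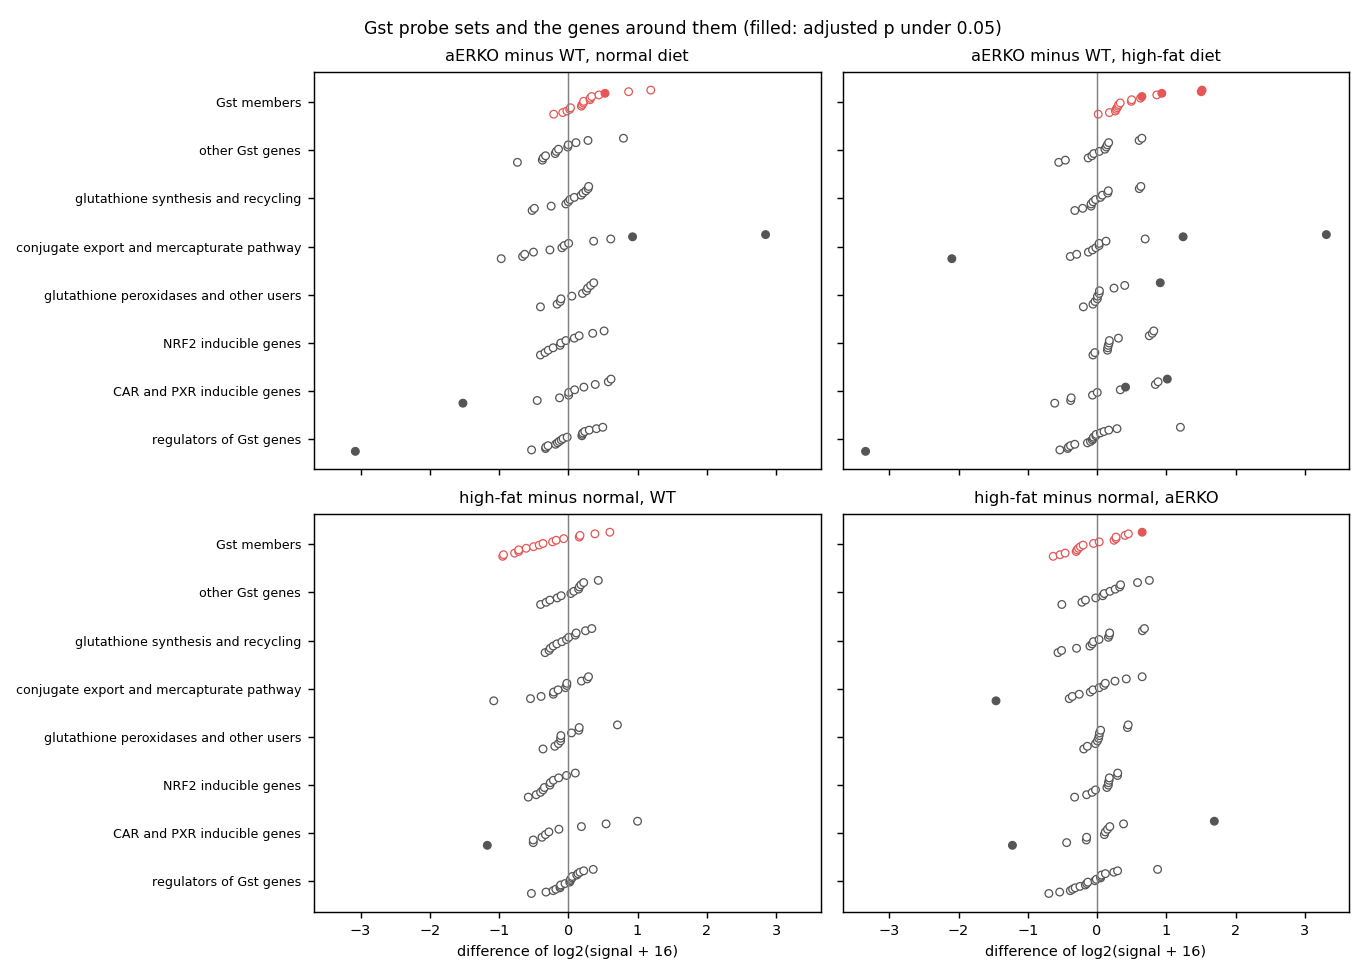
Differences in log2(signal + 16) of the Gst probe sets and of the genes of the pathway lists, 1 point per probe set, for the 2 genotype and the 2 diet comparisons; filled points passed an adjusted p under 0.05. The filled points furthest from 0 were Nat8 (2.85 and 3.31) and Cux2 (-3.08 and -3.34) between genotypes.

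Genes other than Gst genes whose pattern over the 12 arrays was nearest to a member were found by the root mean square difference of log2 values, each centred on its own mean. For Gsta2, the member with the widest range of group means, the nearest was 4930480G23Rik at 0.25, followed by Scd1, which desaturates fatty acids, at 0.41, the carboxylesterase gene Ces2e at 0.44, Cct4 at 0.45 and Unc119 at 0.45, where the median over all candidates was 0.92. The shared Gsta probe set also had 4930480G23Rik (0.28) and Ces2e (0.32) as its nearest, with Cpne8 at 0.36. For Gsta3 at 1423437_at the nearest were Kmo, 4930430F08Rik and Mipol1, between 0.168 and 0.169. For Gstm2 they were Akr1a1 (0.157), Hsd17b12 (0.159) and Ube2e2 (0.172), and for Gstp1 Hprt (0.149), Etnk1 (0.164) and Aasdhppt (0.166). None of these genes is an annotated neighbour of its member on the chromosome.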

How the data were processed

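Liver RNA of 12 samples was measured on 1-colour Affymetrix 3' arrays, 1 array per sample. MAS5 and Affymetrix Expression Console are named by the submitters' processing notes, without versions. Each probe set has 1 deposited value per array, a MAS5 signal, which is a linear intensity that the authors had already scaled: without the lowest and highest 2%, each array's mean was 500.004, and array medians lay between 75.6 and 114. For the authors' processing of the probe sets, the build is not given in the sources used here. Precision is limited by the number of arrays, with a median standard error of 0.234 for a difference of 2 groups and 0.331 for the interaction.

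Groups were taken from the labels. No pair of arrays held identical values (0 pairs), and correlations of log2 values were 0.891 to 0.917 within and 0.887 to 0.921 between groups. Deviations of same-numbered arrays correlated between -0.269 and 0.205 over 18 pairs, so replicate numbers were not treated as pairs. Of 45101 probe sets, 34958 had 1 gene symbol, 932 several and 9211 none. Probe sets above the array median on at least 3 of the 12 arrays were kept, and log2(signal + 16) was tested in R 4.3.3 with limma 3.58.1, 1 mean per group, 8 residual and 6.26 prior degrees of freedom and an intensity trend. Two-sided p-values were adjusted (Benjamini-Hochberg) over all 25412 probe sets. The fit was also run on simulated data, with no outcome reported here. Each listed gene was represented by its brightest probe set.

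The member genes, the 7 pathway lists and the 11 marker lists were chosen with earlier results of these data known. Member probe sets called in any comparison, and 1 per member gene, were given in full. Listed genes were named if called, and otherwise up to 3 per list and comparison with the smallest p were eligible. Alternatives were other pseudocounts, scalings and filters, no trend, 1 probe set a gene, fewer arrays, a replicate block and marker scores as covariates. Start-region sequences came from RefSeq (GRCm38.p6). Detection flags, scanner files and scan batches were not used here.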

Additional observations from a re-analysis of the deposited data

How the results depend on the processing

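The 6 called Gst differences kept their sign in every alternative run (0 reversed). For the genotype difference on high-fat diet, Gsta2 kept its call in 21 of 24 alternatives (1.20 to 1.83), Gstp1 in 21 of 24 (0.53 to 0.75), the shared Gsta probe set in 18 of 24 (1.33 to 1.78) and Gstm2 in 15 of 24 (0.79 to 1.10). Gstp1 on normal diet kept its call in 13 of 24 (0.43 to 0.67), and Gsta3 between diets in aERKO in 4 of the 23 that tested it (0.57 to 0.78). Gsta2 on normal diet was called in 4 alternatives, among them 1 probe set a gene (adjusted p = 0.0441), and Gstm1 at 1416416_x_at between diets in WT in 5, among them quantile normalization (adjusted p = 0.0401). The cause of these changes was not tested.

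The count of called Gst probe sets between genotypes on normal diet, 1, was 0 with no filter, with median centring, with no intensity trend, without the arrays with pancreatic transcripts, with marker scores as covariates, and without the arrays with pancreatic or muscle transcripts, an alternative chosen after seeing the data. It was 2 with 1 probe set a gene and 0 to 2 when 1 array was left out. With only the groups compared, Gsta2 was called (adjusted p = 0.029) and Gstp1 was not, so an equal count can stand for another probe set. On high-fat diet the count of 4 was 0 with no trend, 2 without the pancreatic arrays, 0 without pancreatic or muscle arrays, and 1 to 5 with 1 array left out. Between diets in WT the count of 0 was 2 with quantile normalization, 1 with 1 probe set a gene and 0 to 2 with 1 array left out. Between diets in aERKO the count of 1 was 0 with no filter, median centring, quantile normalization, no trend, 1 probe set a gene, only the groups compared, covariates, and without pancreatic arrays or without pancreatic or muscle arrays, and 0 to 1 with 1 array left out. The interaction count stayed at 0 in each of these and with 1 array left out (0 to 0).

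With the replicate number as a block, the count between diets in aERKO was 0 (Gsta3 adjusted p = 0.0623); it changed no other Gst call.

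Over all probe sets, calls between genotypes on normal diet fell from 172 to 97 with no trend, 97 with only the groups compared, 94 without pancreatic arrays and 88 without pancreatic or muscle arrays, and median centring gave 76 higher and 50 lower where the deposited scaling gave 84 and 88. On high-fat diet 327 became 167 with median centring, 120 with no trend, 136 with covariates, 74 without pancreatic arrays, 40 without pancreatic or muscle arrays and 139 to 462 with 1 array left out. Between diets, 7 in WT became 0 to 22 and 46 in aERKO became 17 to 56 with 1 array left out. They became 0 in WT and 22 in aERKO without pancreatic arrays, 2 (1 higher, 1 lower) and 18 with median centring, 1 and 9 with no trend, 4 and 29 with no filter, and 13 and 27 with only the groups compared. In aERKO they were also 26 with covariates and 16 without pancreatic or muscle arrays, which gave 0 in WT, and in WT 4 with a pseudocount of 64. The interaction had 0 calls over all probe sets, 2 with covariates and 0 to 1 with 1 array left out. Median centring moved the median of all probe sets from -0.05 to 0.09 on normal diet and from -0.05 to 0.05 on high-fat diet between genotypes. Leaving out the 4 pancreatic arrays keeps 1 WT array on high-fat diet, which limits what that alternative can call.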
